A study of Bos taurus with 4 samples.

Results

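Heat shock proteins and their J-domain co-chaperones were examined in the semitendinosus muscle of bulls aged 15 months. The members were all non-control probes whose accession maps to a bovine gene of the HSPA, HSPB, HSPD, HSPE, HSPH, HSP90, DNAJA, DNAJB, DNAJC or BAG families, or to *cryab*, *hsf1* or *hsf2*. This gave 154 of 43653 probes, for 68 of 11054 genes with a symbol. Muscle RNA of 4 Hereford (HER) bulls, a beef breed, and 4 Holstein-Friesian (HF) bulls, a dairy breed used as the reference, was compared on 1 slide of 4 Agilent bovine arrays with both dyes. Each array held 1 bull of each breed, the labels give no treatment, and visible fat and connective tissue had been trimmed off the muscle. The Limousin arrays of the study were not analysed here.

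Chaperones of the HSP70 family bind unfolded stretches of other proteins and release them in a cycle driven by ATP. J-domain proteins (DNAJ) bring clients and stimulate ATP hydrolysis, and nucleotide exchange factors such as the HSP110 and BAG proteins reset the cycle. HSP90 acts on later folding steps, HSP60 with HSP10 folds proteins inside mitochondria, and small heat shock proteins hold damaged proteins in solution. In skeletal muscle they guard sarcomere proteins such as desmin, titin and myosin, and the heat shock factors HSF1 and HSF2 regulate their transcription.

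All ratios are log2 of Cy5 over Cy3 after loess normalization, and "lower" means lower in the Cy5 sample. Per the dye labels Cy5 was HF and Cy3 was HER, which turns the signs below against those of the study's tables. Those tables name no dye, and that they run as the signs here do if Cy5 is read as HER is an inference from the signs alone. The labels also mention a dye swap made to set HF as the reference, so the breed direction is not settled. All arrays had 1 dye orientation, and dye and breed cannot be told apart. In this bulk tissue, fewer cells of a type and less RNA per cell cannot be told apart either.

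A probe was tested when it was well above background in the same channel on all 4 arrays, which 142 member probes for 61 genes were. The genes *dnajb3*, *dnajb7*, *dnajb13*, *dnajc6*, *dnajc22*, *hspa1l* and *hspb9* had probes but none that was tested. The test covered 32608 probes, and 1083 of them (3.32%) passed the threshold of 0.05 on the adjusted p of limma, which is the meaning of "called" throughout. The median signal was 129 to 160.5 in Cy5 and 77 to 138 in Cy3 over a background of 37 to 41, and no spot was saturated. The muscle genes *acta1*, *ckm* and *des* were in the brightest 1% of probes. Of the adipocyte markers *plin1*, *lep*, *fabp4* and *cidec*, with a median log2 ratio of -0.47, none was called (limma, adjusted p). In limma 1 was lower at an unadjusted p under 0.05. The separate-channel fit called none of them, and the methods' t-test called no tested probe at all after adjustment.

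Chaperone RNAs were more often lower than higher in the Cy5 sample. Of the 142 member probes, 14 (9.86%) were called lower, against 1.35% of all tested probes, and 0 were called higher, against 1.97%. Unadjusted, 4 member probes were higher and 47 lower at p under 0.05 in limma. Such unadjusted counts, here and for other sets, were made without the share over all tested probes. They are therefore no result about the set. The separate-channel fit, which called more probes in all, called 0 members higher (5.32% of all probes) and 23 lower (4.49%). The methods' t-test called 0 of all 32608 tested probes after adjustment, so that it cannot tell members from the rest. By the size and p that the study's methods set, a fold of 1.3 and an unadjusted p up to 0.05, but with the p of limma, 30 member probes were lower (6.48% of all probes) and 1 higher (7.96%). The 14 probes stood for 7 genes, *hspa8* (6 probes), *hspa4*, *hsph1*, *dnaja1* (2 probes), *dnaja4*, *dnajc24* (2 probes) and *bag2*. With median centring of each array in place of loess, 2 member probes were called lower and 40 higher (2.18% and 30.7% of all probes), and none of the 14 remained called. Median-centred ratios climbed with brightness. The 30.7%, here and below, is therefore no like share for bright probes or for genes read by their brightest probe. Of the 105 member probes with a mean below 0 after loess, 76 were above 0 there, as the median of all tested probes then was, at 0.24. The counts rested on all 4 arrays, since 2, 1, 0 and 0 member probes were called lower without arrays 1, 2, 3 and 4. Over all tested probes 115, 38, 5 and 5 were called there.

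The median over the 142 probes was a log2 ratio of -0.16, against 0.01 over all tested probes. On arrays 1 to 4 the median was -0.18, -0.19, -0.09 and -0.26. It was below 0 on each array, while the median of all probes lay between 0.00 and 0.02. In all, 105 member probes had a mean below 0 (47.6% of all probes did), 54 were below 0 on all 4 arrays (14.5% of all probes) and 5 were above 0 on all 4 (18.3%). The 4 Cy5 intensities all lay below the 4 Cy3 intensities for 29 member probes (6.51% of all probes), and above them for 3 (7.68%). Without *hspa8* the median was -0.16, so that it did not rest on the gene with the most called probes.

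*Hspa8* encodes the constitutive cytosolic HSP70, which folds new proteins, uncoats clathrin vesicles and delivers proteins to lysosomes. It was measured by 6 probes, numbered here and for other genes from the brightest on, and each was called. On arrays 1 to 4 the log2 ratio of probe 1 was -0.89, -0.84, -0.65 and -0.48. That of probe 2 was -1.13, -1.12, -0.87 and -0.92. Over the 6 probes the mean ratio ran from -1.06 to -0.71, about 2-fold for probes 2, 3, 5 and 6, and the SD between arrays from 0.09 to 0.19 (n = 4 each).

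In log2 intensity, probe 1 of *hspa8* was at 14.16, 14.17, 14.12 and 14.43 in the Cy5 samples and at 15.05, 15.01, 14.76 and 14.91 in the Cy3 samples. The channels did not overlap, and this held for all 6 probes. The adjusted p was 0.0332 for probe 1 and 0.0139 to 0.0156 for the rest in limma. Probes of 1 gene share the same RNA and are not separate replicates. Of the 6 probes, 2 remained called without array 1 and none without array 2, 3 or 4 (adjusted p up to 0.113), with every ratio still below 0.

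With median centring the 6 probes stood between -0.36 and 0.11, 5 of them below 0 and none called. The 3737 tested probes of the same range of intensity then had a median of 0.70, and 8.05% of them lay below the highest *hspa8* probe. When the median-centred ratio was read against the tested probes nearest in intensity, an alternative chosen after the data were seen, the *hspa8* probes were at -1.03 to -0.65 and all 6 were called (adjusted p from limma up to 0.0443). Of all member probes, 12 were called lower there and 0 higher (1.26% and 1.39% of all probes). The size and the calls of *hspa8*, and the sign of probe 1, thus depended on whether it was read against all probes or against probes of like brightness.

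The study also measured this transcript by qPCR, and the primer pair is shown because it names the stretch of *hspa8* on which that second assay rests. The qPCR values were not used here. The primers and all 6 array probes are annotated to the same RefSeq transcript. No part is marked by capitals.
forward primer, 5′ to 3′: agacttgctgctgttggatgt
reverse primer, 5′ to 3′: gcaggttgttatccttggtca
Both are 21 bases long with 47.6% G and C. The sequences of the array probes were not used here, so that the place of each probe on the transcript is not given.

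**Figure D1:**
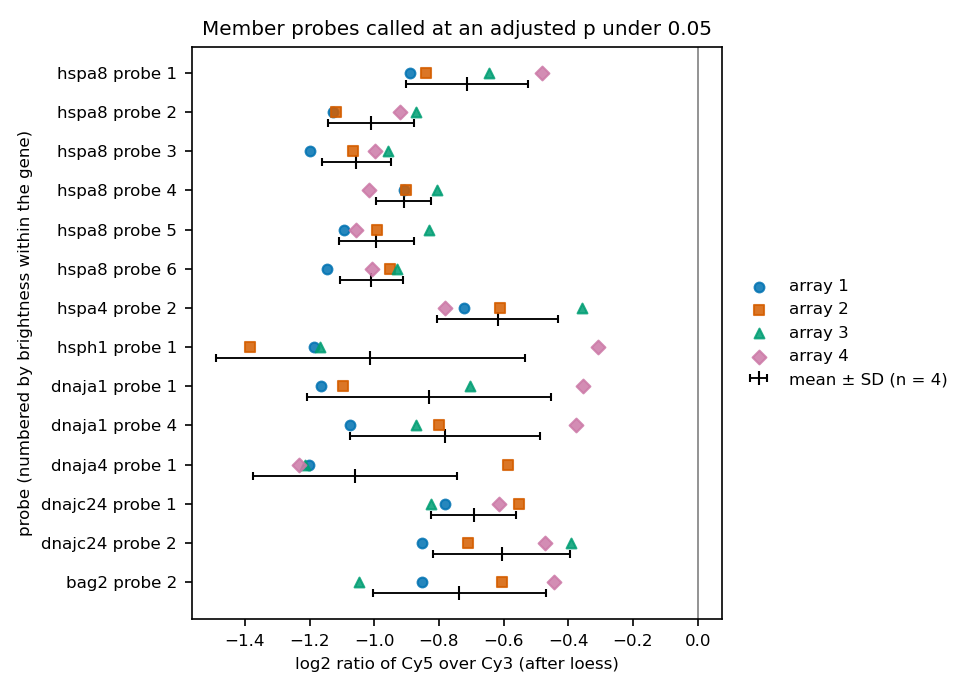
Log2 ratio of Cy5 over Cy3 after loess (horizontal axis) of the 14 member probes called at an adjusted p under 0.05 (vertical axis, probes numbered by brightness within a gene). Coloured symbols are the 4 arrays, black marks with bars the mean ± SD (n = 4). All 14 lie below 0 on all 4 arrays; with median centring none is called and *hspa8* probe 1 is at 0.11.

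The HSP110 proteins exchange nucleotides on HSP70. *Hsph1*, the inducible member, had 1 probe at -1.19, -1.38, -1.17 and -0.31 on arrays 1 to 4. Its mean was -1.01 ± 0.48 (SD, n = 4, adjusted p = 0.0499 from limma), and array 4 stood well short of the others. *Hspa4* had a pair of probes that differed. Probe 2 was at -0.72, -0.61, -0.36 and -0.78 and was called at a mean of -0.62 ± 0.19 (SD, n = 4, adjusted p = 0.0412 from limma). Probe 1 was at -0.39, -0.02, 0.01 and -0.11 and was not called (mean -0.13, adjusted p = 0.468). Whether they measure different transcripts was not tested.

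Other members of the HSP70 family gave small or uneven ratios. *Hspa1a*, the stress-inducible HSP70, was at 0.82, -0.82, -0.92 and -1.21, so that array 1 ran against the other arrays, and it was not called (mean -0.53 ± 0.92, SD, n = 4, adjusted p = 0.387 from limma). *Hspa5*, the HSP70 of the endoplasmic reticulum, ran from -0.31 to 0.13 over 4 probes and *hspa9*, that of mitochondria, from -0.10 to -0.07 over its probes. The ribosome-associated *hspa14* was at -0.11 and -0.10, *hspa13* at -0.01 and *hspa2* at 0.08. The highest ratio in the family was that of *hspa12b*, known from endothelial cells, at 0.26 ± 0.39 (SD, n = 4, adjusted p = 0.365 from limma). The endothelial markers *pecam1*, *cdh5*, *kdr* and *tek* had a median of -0.12 there and of 0.33, -0.59, 0.07 and -0.28 on arrays 1 to 4, where *hspa12b* was at 0.84, 0.17, -0.03 and 0.07. Their part in it was not tested. Over the 22 probes of the HSPA and HSPH genes the median was -0.14. Of these, 8 were called lower (1.35% of all tested probes were), 6 of them of *hspa8*.

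Among the J-domain families, DNAJA had the lowest median, -0.49 over 16 probes of 4 genes, all with a mean below 0 and 13 of them below 0 on all 4 arrays. It had 3 called probes, all lower, where 1.35% of all tested probes were called lower. Apart from the mitochondrial *dnaja3*, these proteins are partners of cytosolic HSP70. With median centring the family stood at 0.00, against 0.24 for all tested probes. The difference between families was not tested.

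*Dnaja1*, a cytosolic partner of *hspa8*, had 5 probes between -0.85 and -0.71. Probe 1 was at -1.16, -1.10, -0.70 and -0.35 on arrays 1 to 4 (mean -0.83 ± 0.38, SD, n = 4, adjusted p just under 0.05 in limma). Probe 4 was at -1.08, -0.80, -0.87 and -0.38 (mean -0.78 ± 0.29, SD, n = 4, adjusted p = 0.0420 from limma). The other probes had an adjusted p of 0.0509 to 0.0682. All 5 probes were below 0 on all arrays and closest to 0 on array 4, apart from probe 5, which was closest on array 3.

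*Dnaja4* was called at its brightest probe, at -1.20, -0.59, -1.21 and -1.23 (mean -1.06 ± 0.31, SD, n = 4, adjusted p = 0.0298 from limma). The dimmer probes were at -0.69 and -0.58 with an adjusted p of 0.0594 and 0.0587. With median centring these 2 dimmer probes were the member probes called lower, at -0.55 and -0.51. *Dnaja2* had 5 probes between -0.41 and -0.22, each below 0 on 4 of 4 arrays and none called (adjusted p = 0.0611 to 0.189 from limma), among them probe 3 at -0.31, -0.37, -0.32 and -0.33. The spread of that probe over the arrays was small, at an SD of 0.03. *Dnaja3*, the mitochondrial member, was near 0 at -0.10 to -0.01 over 3 probes.

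The DNAJB family had a median of -0.05 over 16 probes of 9 genes, none of them called in either direction. In limma 1 was higher and 1 lower at an unadjusted p under 0.05, and the separate-channel fit called none. Median centring called 6 higher, where it called 30.7% of all tested probes higher. *Dnajb1*, which is strongly induced by heat shock, was at 0.33, -1.33, -2.16 and -0.28 on arrays 1 to 4 at probe 1 and at 0.35, -0.50, -1.56 and -0.02 at probe 2. Both probes were highest on array 1 and lowest on array 3, and the mean of probe 1, -0.86 ± 1.10 (SD, n = 4), had an adjusted p of 0.253. *Dnajb4*, its near relative, was at 0.21, -0.31, -0.87 and -0.47, again highest on array 1 and lowest on array 3 (adjusted p = 0.272). *Dnajb6*, which suppresses protein aggregation and is known from muscular dystrophy, was above 0 on 4 of 4 arrays at probe 1 (0.24, 0.45, 0.49 and 0.18; mean 0.34 ± 0.15, SD, n = 4, adjusted p = 0.0900 from limma). Its dimmer probe was at 0.17.

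*Dnajb5* had the widest spread of all members. Its 3 probes had means of -0.07 to 0.02, but probe 1 was at 0.70, 1.37, -1.17 and -0.81 on arrays 1 to 4. Probes 2 and 3 gave the same order, at 0.66, 1.17, -1.24 and -0.86 and at 0.63, 1.19, -1.17 and -0.77. The pairs of bulls on arrays 1 and 2 thus differed in the opposite direction to those on arrays 3 and 4, and by more than 1.5-fold on each array. The SD of probe 1, 1.21, was above that of 99.5% of all tested probes. Of the member probes 7 were in the top 5% by SD, as were 5% of all tested probes, and they belonged to *dnajb5*, *dnajb1*, *hspa1a* and *dnajc15*.

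**Figure D2:**
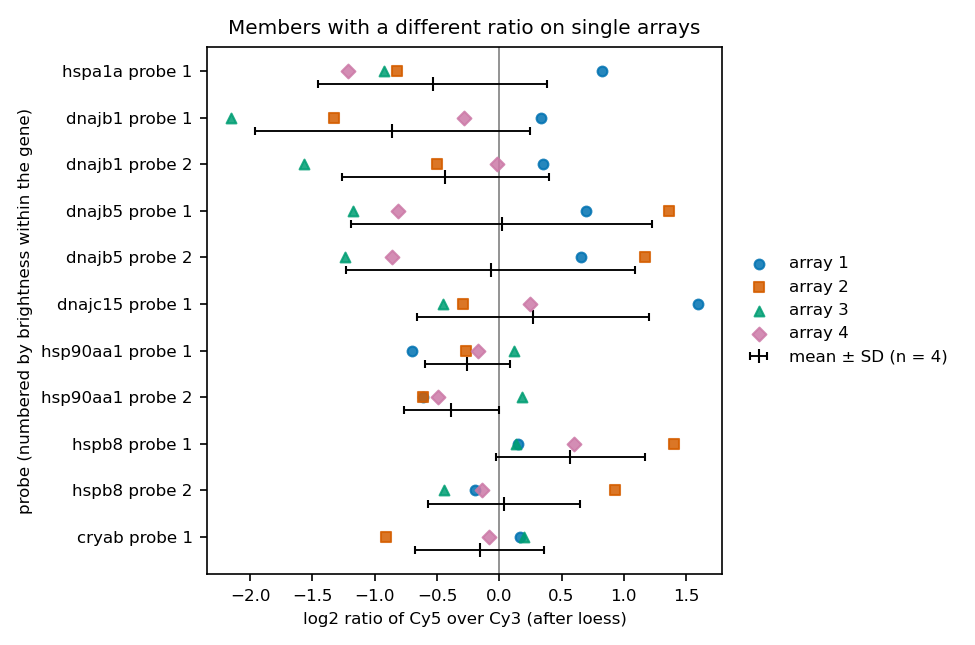
Log2 ratio of Cy5 over Cy3 after loess (horizontal axis) of the 2 brightest probes of members whose ratio differed between arrays, chosen after their values were seen (vertical axis). Coloured symbols are the 4 arrays, black marks with bars the mean ± SD (n = 4). *Dnajb5* is above 0 on arrays 1 and 2 and below 0 on arrays 3 and 4 at both probes, and *hspa1a* is above 0 on array 1 alone.

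The DNAJC family, whose members share little beyond the J domain, had a median of -0.16 over 40 probes of 19 genes. *Dnajc24*, which takes part in the diphthamide modification of elongation factor 2, was called at both probes. Probe 1 was at -0.78, -0.55, -0.82 and -0.61 (mean -0.69 ± 0.13, SD, n = 4, adjusted p = 0.0290 from limma) and probe 2 at -0.85, -0.71, -0.39 and -0.47 (mean -0.61 ± 0.21, SD, n = 4, adjusted p = 0.0445 from limma). All 4 Cy5 intensities lay below all 4 Cy3 intensities at both probes. *Dnajc3*, an inhibitor of the kinase PERK in the endoplasmic reticulum, was at -0.87, -0.19, -1.08 and -0.71 (mean -0.71 ± 0.38, SD, n = 4, adjusted p = 0.0606), smallest on array 2. *Dnajc10*, a disulfide reductase of the same compartment, had 6 probes between -0.26 and -0.16, none of them called. The mean of *dnajc12* was -0.62 and -0.52, that of *dnajc21*, which acts in ribosome assembly, -0.65 to -0.33 over 4 probes, and that of *dnajc16* -0.45 to -0.32 over 4 probes, none called.

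Mitochondrial members of the family did not run together. *Dnajc19*, a part of the protein import motor, was at 0.01 and 0.05 over its probes, and *dnajc11* at -0.09 to 0.14. *Dnajc15*, a relative of *dnajc19*, was at 1.60 on array 1 and at -0.29, -0.45 and 0.24 on the other arrays, so that 1 pair of bulls stood apart (mean 0.27 ± 0.93, SD, n = 4, adjusted p = 0.673 from limma). *Dnajc30* had the highest ratio of the family at a dim probe, 0.30 ± 0.19 (SD, n = 4, adjusted p = 0.133), above 0 on 4 of 4 arrays, and 0.11 at its other probe.

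The BAG proteins release substrates from HSP70. *Bag2*, which also restrains the ubiquitin ligase CHIP, was called at probe 2, at -0.85, -0.60, -1.05 and -0.44 (mean -0.74 ± 0.27, SD, n = 4, adjusted p = 0.0419 from limma). Its brighter probe was at -0.38, 0.10, -0.55 and -0.55 and not called (mean -0.35, adjusted p = 0.174), so that array 2 was the one on which the probes disagreed in sign. *Bag1* was at -0.25 at both probes and below 0 on all arrays. *Bag3*, which joins with *hspb8* to clear damaged sarcomere proteins, was at -0.24 to -0.11 over 3 probes, and *bag5* was at 0.26 ± 0.17 (SD, n = 4, adjusted p = 0.155). *Bag4* and *bag6* lay between -0.05 and 0.12. Over 13 probes of 6 genes the family median was -0.11.

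HSP60 and HSP10, the mitochondrial chaperonin and its lid, are encoded by *hspd1* and *hspe1*, which are next to each other among the protein-coding genes of the RefSeq annotation. All 7 probes had a mean below 0, from -0.43 to -0.18, with a median of -0.26, and none was called. Of these, 4 were lower at an unadjusted p under 0.05 in limma, and 2 were called lower in the separate-channel fit (4.49% of all probes). With median centring 2 were called higher (30.7% of all probes). *Hspe1* was at -0.39, -0.47, -0.22 and -0.52 at probe 1 (mean -0.40 ± 0.13, SD, n = 4, adjusted p = 0.0604 from limma). *Hspd1* probe 3 was at -0.42, -0.49, -0.27 and -0.47 (mean -0.41 ± 0.10, SD, n = 4, adjusted p = 0.0535). Both genes were nearest to 0 on array 3.

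Array 3 also stood apart for HSP90. The family median was -0.38, -0.38, 0.28 and -0.38 on arrays 1 to 4, with -0.21 over all arrays for 13 probes, all bright. *Hsp90aa1*, the inducible cytosolic form, was at -0.61, -0.61, 0.18 and -0.50 at probe 2, and its 6 probes had means of -0.38 to -0.14. *Hsp90ab1*, the constitutive cytosolic form, was at -0.38, -0.44, 0.27 and -0.30 at probe 1, and its 6 probes ran from -0.21 to 0.07. Array 3 was above 0 at 5 of the 6 *hsp90aa1* probes and at all 6 *hsp90ab1* probes. *Hsp90b1*, the form of the endoplasmic reticulum, was at -0.65, -0.10, -0.11 and -0.40 and had no such rise on array 3. None of the 13 probes was called. At an unadjusted p under 0.05 in limma 2 were lower and none higher, and the separate-channel fit called none. Median centring called 8 higher, where it called 30.7% of all tested probes higher, a share over every brightness, while these 13 were all bright. Without array 3 the family median was -0.38.

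The small heat shock proteins include the muscle chaperones *hspb1*, *cryab*, *hspb6* and *hspb8*, and all 10 tested probes were bright. *Hspb1*, HSP27, was at -0.42, -0.75, -0.64 and -0.23 (mean -0.51 ± 0.23, SD, n = 4, adjusted p = 0.0608 from limma), with no overlap of the channels. *Cryab*, αB-crystallin, which protects desmin, was at 0.17, -0.91, 0.20 and -0.09 (mean -0.16 ± 0.52, SD, n = 4, adjusted p = 0.678), low on array 2 alone. Its neighbour *hspb2* was at -0.28 and -0.31 at its probes, with no low value on array 2 (-0.06 and -0.19). *Hspb6* had means of -0.33 and -0.13 and *hspb3* one of -0.05.

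*Hspb8*, a small heat shock protein that acts with *bag3*, ran the other way on array 2. Probe 1 was at 0.15, 1.40, 0.13 and 0.60 (mean 0.57 ± 0.60, SD, n = 4, adjusted p = 0.189 from limma). Probe 2 was at -0.20, 0.93, -0.45 and -0.14 and probe 3 at 0.26, 0.99, -0.34 and -0.12. All 3 were highest on array 2, and the probes disagreed in sign elsewhere. Over the family the median was -0.14, and no probe was called. At an unadjusted p under 0.05 in limma, 1 was higher and 2 lower. The separate-channel fit called 1 lower (4.49% of all probes), and median centring called 5 higher (30.7% of all probes).

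Small heat shock proteins are known to be abundant in slow fibres, so that fibre markers were read beside them. Of 9 measured slow-fibre genes, 8 were above 1 on array 1 (all but *myl3*, the called gene, at -0.82 there), and 8 were below 0 on array 2. Their median was 2.02, -0.91, -0.06 and -0.53 on arrays 1 to 4. The slow myosin gene *myh7* was at 2.16, -1.02, -0.04 and -0.25. On array 1 *cryab* was at 0.17, *hspb1* at -0.42 and *hspb8* probe 1 at 0.15. On array 2 these were at -0.91, -0.75 and 1.40. For 6 fast-fibre genes the median was -0.02, 0.64, 0.08 and 0.35. Array 1 was also the highest for *hspa1a* (0.82) and *dnajc15* (1.60), while *dnajb5* was highest on array 2. The part of fibre type in the ratios of these genes and of the small heat shock proteins was not tested. The fibroblast genes *col1a1* and *col3a1* were called lower, at -2.05 and -1.68, while *dcn* and *pdgfra* were at 0.42 and 0.49. The median was 0.13 for 5 skeletal muscle genes, 0.59 for 4 macrophage genes and 0.14 for *hba* and *hbb* of blood. None of them was called (limma, with 2, 3 and 0 higher and 1, 0 and 0 lower at an unadjusted p under 0.05). The separate-channel fit called 2, 1 and 0 of them higher and 1, 0 and 0 lower (5.32% and 4.49% of all probes). The probe of *hbb* (0.34) was near the floor, at percentile 5.5 of intensity, while the bright *hba* was at -0.06. With median centring 4, 4 and 1 genes of these sets were called higher. The 30.7% of all tested probes called higher covers every brightness, while these genes were read by their brightest probe. For 4 smooth muscle genes the median after loess was -0.05, with *cnn1* called lower at -0.79 at its brightest probe. The dimmer *cnn1* probe was at -0.13 and not called (adjusted p = 0.396 from limma).

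The heat shock factors showed no called difference at any of 5 probes, none with an unadjusted p under 0.05 in limma and none called in the separate-channel fit. *Hsf1* was at 0.23, -0.10, 0.42 and -0.42 at its brightest probe (mean 0.03 ± 0.37, SD, n = 4, adjusted p = 0.920 from limma), and its 3 probes had means of 0.03 to 0.12. All 3 were lowest on array 4. *Hsf2* was at 0.17 and -0.10 at its probes. With median centring the brightest probes of *hsf1* and *hsf2* were at 0.77 and 0.67 and called higher (adjusted p = 0.0188 and 0.00987 from limma), as was *hsf1* probe 2. There 30.7% of all tested probes were called higher. The family median was 0.04 after loess, and without arrays 1, 2, 3 and 4 in turn -0.03, 0.08, -0.03 and 0.19.

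**Figure D3:**
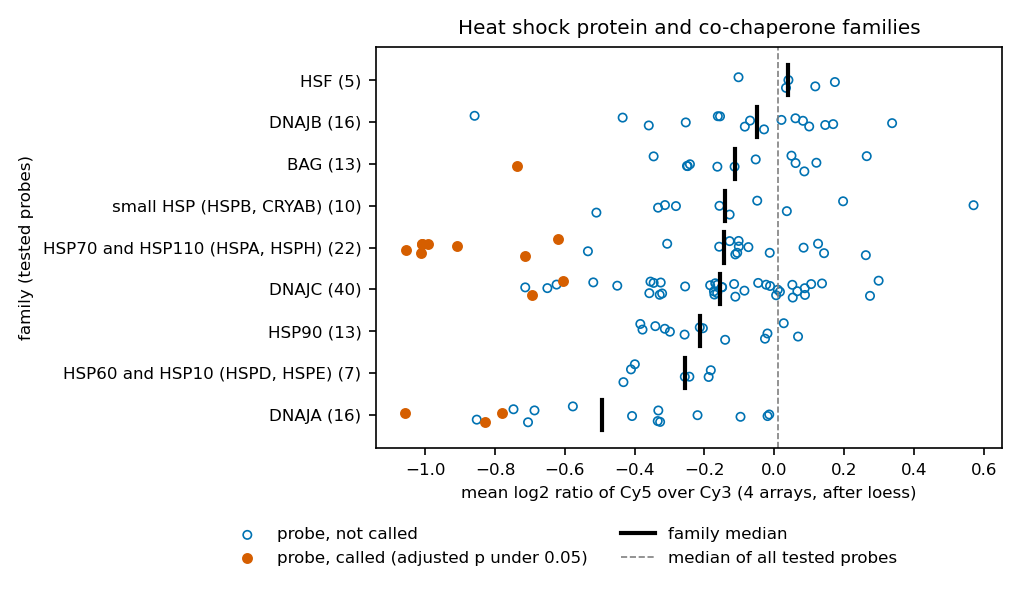
Mean log2 ratio of Cy5 over Cy3 over 4 arrays after loess (horizontal axis) of all 142 tested member probes by family (vertical axis, number of tested probes in parentheses). Filled symbols are the 14 called probes, open ones the rest, black bars the family medians and the dashed line the median of all tested probes. Medians lie below 0 for each family but HSF, whose median of 0.04 is -0.03 without array 1 or without array 3; with median centring all family medians are at or above 0.00.

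The list of 19 heat shock response genes, of which 18 were measured and 14 of these are members, was read by the brightest probe of each gene. Of the 18, 17 were below 0 (47.6% of all tested probes were), and *hspa8*, *dnaja1* and *hsph1* were called lower. *Hspb8* alone was above 0. The median was -0.31, against 0.02 for the 9426 genes tested by their brightest probe, of which 1.54% were called lower. The calls of *dnaja1* and *hsph1* were just under the threshold. Read against probes of like intensity, they were not called (adjusted p = 0.0549 and 0.0526 from limma). With median centring the median was 0.45, against 0.43 for all genes, and 4 genes were below 0 (*hsph1*, *dnaja1*, *dnajb1* and *chordc1*). Of the 18, 8 were called higher there and 0 lower. The 30.7% of all tested probes called higher covers every brightness and is no like share for genes read by their brightest probe. The 4 genes that are not members, *chordc1*, *ahsa1*, *stip1* and *fkbp4*, were at -0.57, -0.11, -0.14 and -0.13, none of them called.

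The listed co-factors of the chaperones stood near the rest of the genes. They are partners of HSP70, of HSP90 and of chaperones in mitochondria or the endoplasmic reticulum, and HSF regulators. They include *chordc1*, *ahsa1*, *stip1* and *fkbp4* again. Of 35 listed, 29 were measured, 15 of them above 0, with a median of 0.02. None was called in limma. At an unadjusted p under 0.05, 3 were higher and 2 lower, and the separate-channel fit called 2 higher (5.32% of all probes). With median centring the median was 0.56, against 0.43 for all genes by their brightest probe. There 17 of the 29 were called higher and none lower. The 30.7% of all tested probes called higher covers every brightness and is no like share for these genes. *Sgta*, a partner of HSP70, was at 0.29, 0.41, 0.61 and 0.36 (mean 0.42, adjusted p = 0.0581 from limma) and the mitochondrial HSP90 gene *trap1* at 0.44, 0.35, 0.11 and 0.29 (mean 0.30, adjusted p = 0.105). At dimmer probes *sgta* had a mean of 0.09 (adjusted p = 0.507 from limma) and *trap1* means of 0.27 and 0.12. *Chordc1* had the lowest mean and was at 0.12 on array 3 against -0.92, -0.49 and -0.97 on the other arrays. *Fkbp5*, an HSP90 co-chaperone induced by glucocorticoids, was at 0.21, 2.33, -0.73 and -0.43 at its brightest probe. Of its 4 probes 3 were highest on array 2, and the third in brightness was highest on array 1 (0.75, 0.65, -0.28 and -1.56).

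By signal level, 94 of the 142 member probes fell in the brightest of 3 equal classes of all tested probes, 36 in the middle class and 12 in the dim one. The brightness of a spot depends on the probe as well as on the RNA, so that it is no level of a gene. After loess the median log2 ratio of bright members was -0.16, against 0.00 for all bright probes, and 12 of them (12.8%) were called lower, against 2.34% of all bright probes. Members in the middle class were at -0.25, against 0.02 for all such probes, with 2 called lower (5.56%, against 1.46%). Dim members were at 0.07, against 0.01, and none was called (0.258% of all dim probes were called lower).

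With median centring the class medians of all probes rose with brightness, from -0.18 in the dim class to 0.30 and 0.64 in the middle and bright classes. Members were then at -0.05, 0.09 and 0.48. Bright and middle members thus lay below the other probes of their class with both methods, although above 0 with median centring. Dim members lay above their class with both, but were brighter than it (median log2 intensity 6.82 against 6.58). With median centring all tested probes near 6.82 had a median of -0.06, close to that of the dim members. On single arrays after loess, bright members were at -0.26, -0.23, -0.12 and -0.31, and middle members at -0.16, -0.28, -0.09 and -0.24.

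**Figure D4:**
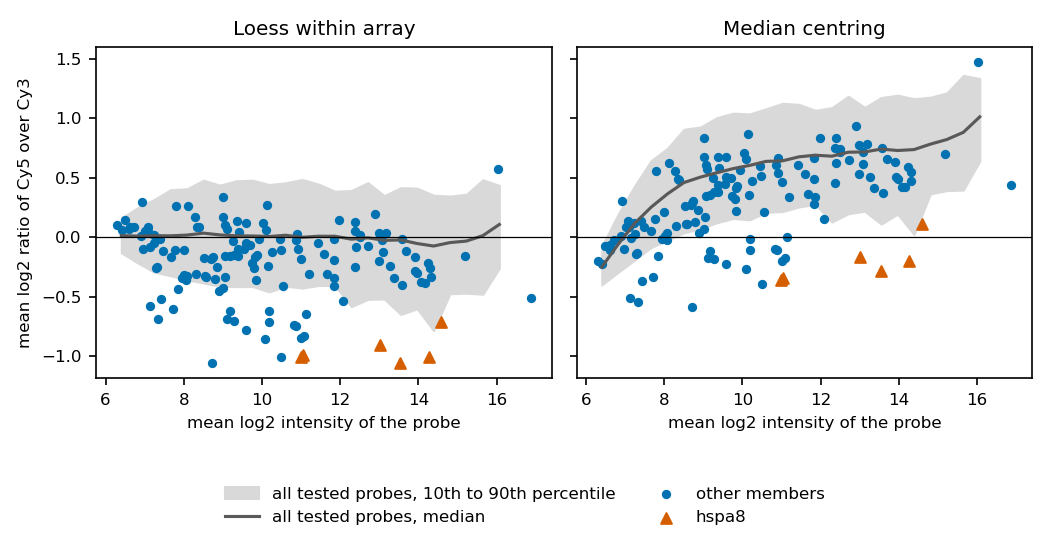
Mean log2 ratio of Cy5 over Cy3 (vertical axis) against the mean log2 intensity of a probe (horizontal axis), after loess (left) and after median centring (right). Grey bands hold the 10th to the 90th percentile and lines the median of all tested probes, circles are member probes and triangles the 6 *hspa8* probes. The line is flat after loess and climbs with median centring, and *hspa8* lies below it in both.

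Where a gene had several tested probes, these mostly ran together. Of 40 such genes, 32 had all probes on 1 side of 0, and the median SD between probes of a gene was 0.09 on the log2 scale, against a median SD between arrays of 0.25 over member probes and 0.21 over all tested probes. The 8 genes with probes of both signs were *bag6*, *dnajb5*, *dnajc11*, *dnajc14*, *dnajc18*, *hsf2*, *hsp90ab1* and *hspa5*, and none of these had a called probe. A called and an uncalled probe stood side by side for 4 genes, *bag2*, *dnaja1*, *dnaja4* and *hspa4*. By the brightest probe alone, 5 of 61 genes were called lower (1.54% of all genes) and 0 higher (2.92%), and 42 were below 0.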

How the data were processed

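Intensity values were deposited as scanner output of Agilent's Feature Extraction software, with median spot and background signals uncorrected, per the file headers. The log10 ratios of the series table, as deposited, equalled the scanner's log ratios of background-subtracted, dye-normalized signals on every array. Here median signals were corrected by normexp (offset 50), normalized by loess (weight 0 for control spots), cleared of 7 to 14 outlier spots per array and averaged per probe. Probes well above background in the same channel on all 4 arrays, with values on at least 3, were tested against 0 by lmFit and eBayes (limma 3.58.1, R 4.3.3, two-sided), with Benjamini-Hochberg adjustment over all tested probes and calls at an adjusted p under 0.05. Separate-channel intensities followed Aquantile normalization. The methods' t-test was a 1-sample test per probe, with their threshold an unadjusted p up to 0.05 and a fold of 1.3.

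Symbols came from RefSeq accessions of ARS-UCD2.0 (23492 probes). The array had been annotated on Btau_3.1, so no coordinates are given. Under the same rule, 12 further genes had no probe matched by accession and were not analysed here (*dnajb8*, *dnajc1*, *dnajc4*, *dnajc7*, *dnajc8*, *dnajc9*, *dnajc25*, *dnajc28*, *hspa4l*, *hspa6*, *hspa12a* and *hspb7*). Named were *hspa8*, *hspa1a*, *cryab*, *hsf1*, *hsf2*, called probes, the extremes and the brightest probe of each family, and genes with called probes of mixed sign, of which there were none. Others were named after their values were seen. Members and lists were chosen with earlier results of these data known. Cell type markers covered muscle, slow and fast fibres, adipocytes, endothelium, macrophages, blood, smooth muscle and fibroblasts. The procedure was tested on simulated data. Alternatives were other background corrections, signals, normalizations, filters, priors and tests, and leaving out each array. With 4 arrays, their number limits the precision.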

Additional observations from a re-analysis of the deposited data

Results flagged for a closer look

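In 3 of 48 sets of 4 array values checked (38 named probes, the 9 families and all members), 1 array lay far from the others by Dixon's criterion. Chance marks about 1 in 20. For the HSP90 family the median was 0.281 on array 3, while the other arrays lay between -0.383 and -0.376. For *hsp90aa1* probe 2 array 3 was at 0.181 against -0.61 to -0.50 on the others, and this probe is part of that family. For *dnaja4* probe 1 array 2 was at -0.588 against -1.23 to -1.20 on the others, nearer to 0 but with the same sign.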

How the results depend on the processing

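Counts of genes in this paragraph, by the brightest probe, were made without the share over all genes. They are therefore no result about the set. With median centring 40 member probes were called higher and 2 lower (30.7% and 2.18% of all probes), and by the brightest probe 23 genes higher and 0 lower. The medians were then 0.34 for all members, 0.35 for BAG, 0.00045 for DNAJA, 0.50 for DNAJB, 0.082 for DNAJC, 0.67 for HSF, 0.37 for HSP60 and HSP10, 0.15 for HSP70 and HSP110, 0.53 for HSP90, 0.61 for small heat shock proteins, and -0.046, 0.089 and 0.48 for dim, middle and bright members. Of 28 named probes below 0 after loess, 12 were above 0 there. Those called by loess or by median centring were the brightest probes of *bag3* (0.63), *hspa8* (0.11), *hsp90aa1* (0.55) and *cryab* (0.70) and a *dnaja3* probe (0.60), and those called by neither were the brightest of *dnaja2* (0.28), *hspe1* (0.37), *hspa1a* (0.15) and *hspb1* (0.44), *hspd1* probes 2 and 5 (0.46 and 0.072) and *hsp90aa1* probe 2 (0.42). Relative to probes of like intensity, chosen after the data were seen, 3 genes were called lower and BAG was at -0.084. With the scanner-processed signals, as with the series table made from them, BAG was at -0.081, DNAJA at -0.62, DNAJC at -0.23, dim members at 0.26 and middle members at -0.38. Plain subtraction gave -0.60 for DNAJA, 0.21 for dim and -0.35 for middle members. The stricter filter on dim probes gave -0.14 for BAG, and without a filter 3 genes were called lower by the brightest probe. The separate-channel fit called 23 probes (4.49% of all probes) and 8 genes lower. The methods' t-test called 0 probes and 0 genes after adjustment, with 0 called over all tested probes. At its threshold 25 member probes were lower and 0 higher (1236 and 1651 of all probes). Leaving out 1 array left 0 to 2 probes and 0 to 1 genes called lower, and medians of -0.16 to -0.045 for BAG, -0.20 to 0.029 for DNAJB, -0.032 to 0.19 for HSF and 0.034 to 0.11 for dim members. Of the 14 called probes, 14 were below 0 under each alternative but median centring (13), and 12 to 14 were called under all alternatives but median centring, the methods' t-test and the omission of an array; the cause of the changes was not tested. No paired analysis was possible because the test is itself over ratios that pair 1 bull of each breed within an array, and the labels form 1 group of arrays, which leaves no further block. With 4 arrays, a moderate difference that was not called is not shown to be absent.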
